A study of Mus musculus with 9 samples.

Results

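The genes described here are 8 heat shock genes, Hspa1a, Hspa1b, Hspa8, Hsph1, Hsp90aa1, Hsp90ab1, Dnajb1 and Hspd1, and 2 genes of cold-inducible RNA-binding proteins, Cirbp and Rbm3. They are 10 of the 20409 genes with a row in the liver count tables. They were chosen by name, as transcripts that are known to follow body temperature in opposite directions, and with earlier results of these data known. The shares of all genes given below are therefore a background and not an independent check. Each gene was represented by its RefSeq transcript with the highest total count. All 10 passed the minimum of 50 counts in every comparison below. No body temperature was analysed here, so each level is a transcript level and not a temperature.

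Livers came from male C57BL/6J mice, with no transgene or deletion named, and no source used here gives their age or the number pooled. Each condition's livers were combined in 1 polyA+ library, so differences between conditions have no replicate check. The first library came from mice fed ad libitum, 1 from mice fasted for 16 h (ZT9 to ZT1, where ZT is the hours after lights on) and 1 from mice refed for 20 h after such a fast. The other 6 came from mice that spent 1 week in a light-dark cycle with 12 h of light and then 6 weeks in constant darkness (DD), collected at circadian times CT1, CT5, CT9, CT13, CT17 and CT21. The fast ended at ZT1 and refeeding went on for 20 h more, so the fasted and refed livers may differ in time of day too, and no source used here gives a harvest time for the ad libitum or refed mice. Feeding state and time of day therefore cannot be told apart in any comparison of these 3 libraries.

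Heat shock genes are switched on by HSF1, a transcription factor that binds heat shock elements, inverted repeats of the unit GAA, when unfolded proteins or heat draw chaperones away from it. In mouse liver, HSF1 target transcripts are known to be higher in the active phase, when body temperature is higher. Cirbp and Rbm3 encode small glycine-rich RNA-binding proteins whose transcripts accumulate on mild cooling, and Cirbp is known to be higher in the resting phase. The comparison of both groups therefore sets transcripts known to accumulate on warming against transcripts known to accumulate on cooling.

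The sequences upstream of the genes are shown because different elements are known to switch both groups. RefSeq windows of 250 bases upstream of a start (GRCm38.p6) were at hand for 6 of the 10 genes, with 10 windows in all. Heat shock elements were searched as TTCNNGAA or GAANNTTC, which overlap each other where units continue, and in the 3-unit form, TTCNNGAA followed at once by NNTTC, on both strands. The octamer TCCCCGCC, known from the mouse Cirbp promoter as a mild-cold response element, was searched on both strands as well. In the stretches below, 5′ to 3′ on the gene's own strand, capitals mark the repeat units or the octamer.
Hspa1b, chr17:34959239-34959488, minus strand: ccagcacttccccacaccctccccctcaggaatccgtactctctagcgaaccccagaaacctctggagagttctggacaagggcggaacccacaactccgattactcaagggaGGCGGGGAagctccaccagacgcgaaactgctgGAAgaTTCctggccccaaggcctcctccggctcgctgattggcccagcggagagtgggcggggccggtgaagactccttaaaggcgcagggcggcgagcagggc
Hsph1, chr5:149636351-149636380, minus strand: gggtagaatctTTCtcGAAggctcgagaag
Hspd1, chr1:55088053-55088082, minus strand: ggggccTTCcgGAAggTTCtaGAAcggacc
Cirbp, chr10:80167589-80167777, plus strand: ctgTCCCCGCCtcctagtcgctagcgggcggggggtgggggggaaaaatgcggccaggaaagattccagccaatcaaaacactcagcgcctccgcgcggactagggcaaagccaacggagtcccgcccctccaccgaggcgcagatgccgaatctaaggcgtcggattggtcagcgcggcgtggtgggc

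The heat shock element was present upstream of Hspa1a, Hspa1b, Hsph1 and Hspd1, and 12.8% of 32851 windows of all genes held it. Hspd1 held 2 overlapping 3-unit matches in its first window, a form found in 0.466% of the windows. The second Hspd1 window (chr1:55088244-55088493), which lay beyond the annotated gene, held neither a heat shock element nor the octamer. The first reached past the GENCODE start of the transcript used (55088024), with its matches upstream of that start. Neither window of Dnajb1 held a heat shock element or the octamer. Its second window (chr8:83608298-83608547) lay downstream of the GENCODE start of the transcript used (83608193), so only the first was upstream of that start. The octamer lay in the first window of Cirbp and, on the strand opposite to the gene's, upstream of Hspa1a and Hspa1b, against 4.64% of the windows. The second Cirbp window (chr10:80167921-80168170) lay downstream of the GENCODE start of the transcript used (80167778) and held no match. The Hspa1a and Hspa1b windows differed at 3 of 250 bases. Only short stretches are printed for Hsph1 and Hspd1, because annotated exons reach into their windows. A match is a description of letters and not a binding site.

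Positions are those of GENCODE M21 on GRCm38, the build of the deposited counts. Hspa1b (ENSMUSG00000090877, chr17:34956436-34959238) and Hspa1a (ENSMUSG00000091971, chr17:34969190-34972156) are neighbours with 1 exon each. Hsp90ab1 (chr17:45567775-45573271) lies on the same chromosome, and Hsp90aa1 is at chr12:110690605-110702728, both with 11 exons. Hspa8 (chr9:40800984-40810087, 9 exons) carries 3 small nucleolar RNA genes within it. Hsph1 is at chr5:149614287-149636376 (18 exons), Dnajb1 at chr8:83608193-83612653 (3 exons) and Hspd1 at chr1:55077835-55088243 (12 exons). Cirbp (ENSMUSG00000045193, chr10:80165985-80172786) and Rbm3 (ENSMUSG00000031167, chrX:8138975-8145880) have 7 exons each in the transcripts used.

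Levels are given as TMM-scaled CPM, the share of a library's counts after scaling that offsets differences in composition, and intervals are 95% counting intervals that leave out the variation between animals. Totals over genes ran from 43485652 to 59624294 counts. A list of 20 acute phase genes, most of them secreted proteins of inflammation, took 24.5% of ad libitum counts, 15.1% of CT1 counts and 14.6% of CT17 counts, and 1.98% to 4.80% elsewhere. Neutrophil markers summed to 57.7 CPM in the ad libitum, 22.4 in the CT1 and 37.5 in the CT17 library, and 1.26 to 5.30 CPM elsewhere. Hepatocyte markers took 6.41% to 13.4% of the counts, and all 10 of them were detected in every library. Among clock genes, Arntl was highest at CT21, Nr1d1 and Dbp at CT5, Per2 at CT9 and Cry1 at CT13.

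Per kilobase of transcript, Hspa8, the HSP90 pair and Hspd1 were the most abundant of the 10 genes. The median over the 9 libraries was 640.4 CPM per kilobase for Hspa8, 216 for Hsp90ab1, 162 for Hspd1 and 116 for Hsp90aa1. It was 25.4 for Rbm3, 13.5 for Hsph1, 11.5 for Dnajb1, 8.89 for Cirbp, 7.23 for Hspa1b and 0.31 for Hspa1a. The inducible Hspa1a thus rested on 31 to 291 counts a library, whereas Hspa8 had 28032 to 136770.

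In DD, heat shock transcripts were highest around CT13, the start of the subjective night, and lowest at CT1 or CT5. CT13 was the highest of the 6 times for 7 of the 8 genes, and 21.4% of 12380 genes had their highest level there. The lowest level fell at CT1 for 5 genes and at CT5 for 3, times at which 24.3% and 13.9% of all genes had theirs. In all, 5 genes differed by a log2 ratio of at least 2 between peak and nadir, the limit the study used for DD, as 4.42% of all genes did. At a log2 ratio of at least 1 the count was 7 of 8, against 22.8% of all genes. Levels of the 6 DD libraries are listed below in the order CT1, CT5, CT9, CT13, CT17 and CT21.

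**Figure D1:**
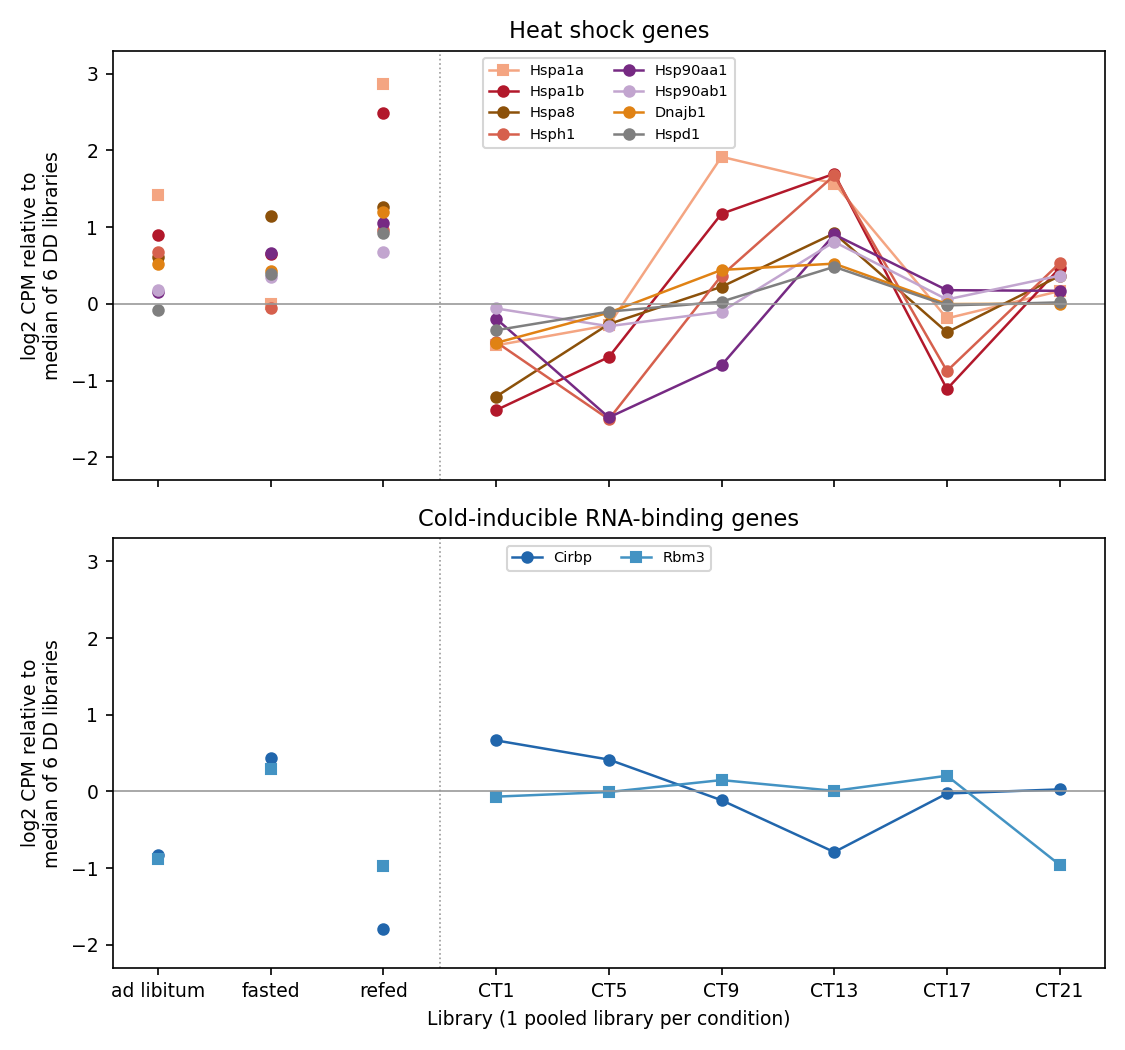
Level of each gene in the 9 libraries, as the log2 ratio of its TMM-scaled CPM to its median over the 6 DD libraries, for heat shock genes (top) and Cirbp and Rbm3 (bottom). Each point is 1 pooled library, and lines join the DD libraries. All 8 heat shock genes lie above their DD median at CT13 and below it at CT1 and CT5, Cirbp lies on the opposite side at these 3 times, and Rbm3 is low at CT21.

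Hsph1, the nucleotide exchange factor that recycles the HSP70 chaperones, was among the 2 genes with the widest range in DD, the other being Hspa1b. It stood at 28.2, 14.0, 51.4, 127, 21.7 and 57.5 CPM from CT1 to CT21. The log2 ratio of CT13 to CT5 was 3.18 (3.07 to 3.29), and CT13 was above every other DD library by more than 2-fold. Hspa1b, a stress-inducible HSP70, stood at 4.92, 7.95, 29.0, 41.7, 5.96 and 17.8 CPM from CT1 to CT21. The intervals of its 3 low libraries, CT1, CT5 and CT17, lay below those of the 3 high ones, and the log2 ratio of CT13 to CT1 was 3.08 (2.90 to 3.27). This interval overlapped that of Hsph1, and Hspa1b had the wider range of both when CT5 or CT13 was left out (3.08 against 2.55, and 2.56 against 2.04).

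Hspa1a, the near-identical neighbour of Hspa1b, was the exception in time. It stood at 0.57, 0.68, 3.13, 2.46, 0.73 and 0.93 CPM from CT1 to CT21. CT9 was nominally the highest library, but its interval (2.64 to 3.68) overlapped that of CT13 (2.04 to 2.94), and the order of CT9 and CT13 was not resolved at this depth. The intervals of CT1, CT5 and CT17 overlapped as well. Of the 150-base stretches of the Hspa1a transcript, 38.1% occur unchanged in Hspa1b, so reads may be divided between both genes in a way the counting method sets, and an antisense gene, Gm20481, overlaps the Hspa1a exon.

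Hspa8 encodes HSC70, the constitutive member of the family, and Dnajb1 encodes an HSP40 that stimulates its ATPase. Hspa8 stood at 515, 992, 1389, 2253, 921 and 1533 CPM from CT1 to CT21. The log2 ratio of CT13 to CT1 was 2.13 (2.11 to 2.15), and this rested on CT1, because without that library the ratio was 1.29. Dnajb1 varied less, with 18.0, 23.7, 34.8, 36.9, 25.6 and 25.7 CPM from CT1 to CT21. CT9 and CT13 overlapped in their intervals, as did CT17 and CT21, and the ratio of CT13 to CT1 was 1.03 (0.92 to 1.15). For Hspa8, 48.7% of the 150-base stretches also occur in the processed copy Gm15459, whereas no other annotated transcript shared one with Dnajb1 or Hsph1.

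The cytosolic HSP90 pair shared the peak at CT13 but had its nadir at CT5. Hsp90aa1, the inducible form, stood at 295, 121, 194, 632, 382 and 379.9 CPM from CT1 to CT21, and the last 2 of these overlapped in their intervals. Its log2 ratio of CT13 to CT5 was 2.39 (2.35 to 2.42), or 1.70 for the 5 libraries without CT5. Hsp90ab1, the constitutive form, stood at 459, 391, 446, 838, 498 and 617 CPM from CT1 to CT21, a log2 ratio of 1.10 (1.08 to 1.12). The inducible form thus spanned more than the constitutive form.

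Hspd1, the mitochondrial chaperonin HSP60, was the flattest of the 8 in DD. It stood at 304, 360.1, 394, 539.7, 381 and 391 CPM from CT1 to CT21, with overlapping intervals at CT9 and CT21. The log2 ratio of CT13 to CT1 was 0.83 (0.80 to 0.85), below both limits. Its first upstream window held the 3-unit heat shock elements, and its second window held no match. Of its 150-base stretches, 18.6% occur in the pseudogene Hspd1-ps3, and 30.05% of those of Hsp90aa1 in Gm12346.

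CT1 and CT17 were also the DD libraries with high acute phase and neutrophil transcripts. CT13 held the nadir of 16 of 20 acute phase genes and 7 of 10 Kupffer cell and macrophage markers (17.1% of all genes). Of other markers, 5 of 8 stellate cell, 4 of 8 endothelial and 3 of 5 neutrophil ones were lowest there. For hepatocytes 1 of 10 was, and for cholangiocytes 0 of 5. CT17 was the peak of 9 of 10 macrophage, 4 of 5 cholangiocyte, 6 of 8 endothelial and 4 of 5 neutrophil markers. It was the peak of 2 of 8 stellate cell markers, 3 of 10 hepatocyte markers and 19.6% of all genes. At CT1, 7 of 10 hepatocyte markers were lowest, as were 24.3% of all genes. The part of these lists in the heat shock levels at those times was not tested. Neither library held the peak of a heat shock gene, so leaving out both could not change which time was highest. Without both, 4 rather than 5 genes passed a log2 ratio of 2, Hspa8 being at 1.18. Without CT13 the count was 3, Hspa1a, Hspa1b and Hsph1, with Hspa8 at 1.57 and Hsp90aa1 at 1.66. Hsph1 was then at 2.04, Hsp90ab1 at 0.66 and Hspd1 at 0.37, and Dnajb1 was at 0.64 without CT1. The peak of each gene thus rests on a single pooled library. In these bulk livers, fewer cells of a type and less RNA per cell cannot be told apart.

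Cirbp ran opposite to the heat shock genes at CT1, CT5 and CT13 in DD, and Rbm3 did not follow it. At CT17 and CT21 Cirbp was near its DD median (log2 ratios of -0.03 and 0.03). Cirbp stood at 19.0, 16.0, 11.1, 6.92, 11.7 and 12.2 CPM from CT1 to CT21. It was thus highest at CT1 and lowest at CT13, as 12.2% and 17.1% of all genes were, with the intervals of CT9, CT17 and CT21 overlapping between them. The log2 ratio of CT1 to CT13 was 1.46 (1.28 to 1.64), 1.21 (CT5 to CT13) without CT1 and CT17, and 0.78 without CT13. No 150-base stretch of Cirbp occurs in another annotated transcript, and no gene overlaps it.

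Rbm3 stood at 29.8, 31.1, 34.6, 31.4, 36.0 and 16.1 CPM from CT1 to CT21. Its peak at CT17 and nadir at CT21 were those of 19.6% and 8.52% of all genes, and CT21 was apart from the other 5 times, which lay between 29.8 and 36.0 CPM. The intervals of CT1, CT5 and CT13 overlapped, as did those of CT9 and CT17. An antisense gene, Rbm3os, overlaps the first exon on the other strand, and without strand in the counting their reads cannot be told apart. The log2 ratio of CT17 to CT21 was 1.16 (1.05 to 1.27), but 0.27 without CT21. At CT13, where Cirbp was lowest, Rbm3 lay 0.01 (log2) above its own DD median, against -0.79 for Cirbp.

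**Figure D2:**
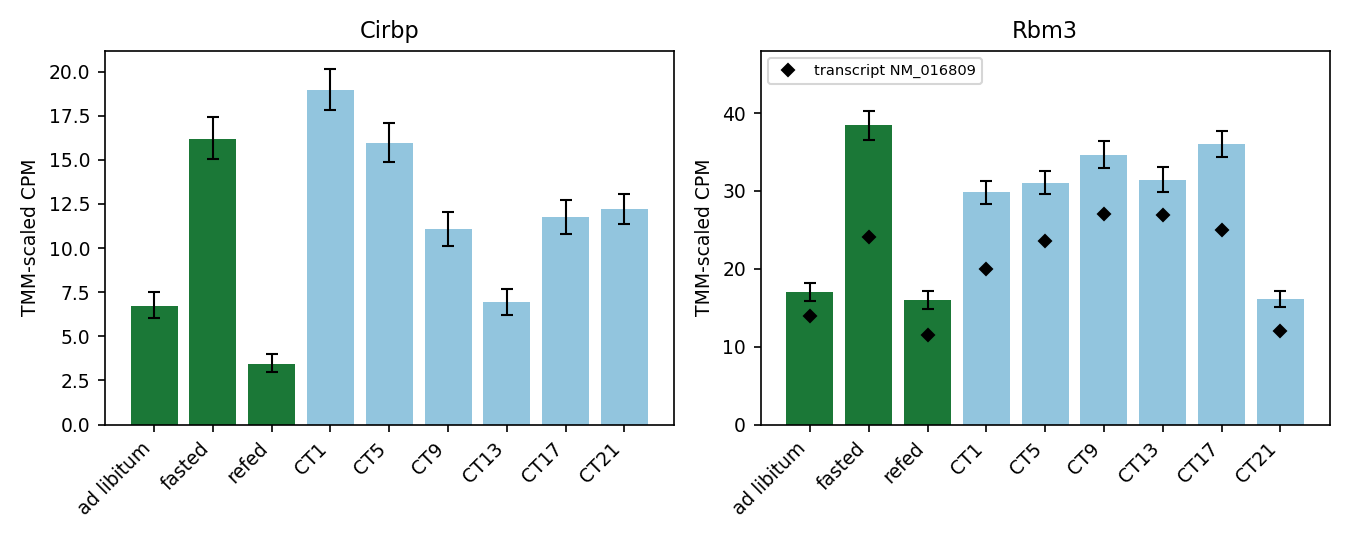
TMM-scaled CPM of Cirbp (left) and Rbm3 (right) in each of the 9 libraries, feeding libraries in green and DD libraries in blue, with exact 95% counting intervals. Diamonds give Rbm3 by its transcript NM_016809, which ends in another exon. Cirbp is lowest in the refed library (3.46 CPM) and highest at CT1 (19.0 CPM), and Rbm3 is highest in the fasted library (38.4 CPM) and low in the ad libitum, refed and CT21 libraries (16.0 to 16.99 CPM).

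A 24-h cosine was tested over the 6 DD libraries with edgeR's quasi-likelihood test, and none of the 10 genes passed at an adjusted p of 0.05. No gene of the 14021 tested did, whereas 1286 (9.17%) had an unadjusted p under 0.05. Limma-voom also called 0 genes (1249 with an unadjusted p under 0.05), and DESeq2's likelihood ratio test called 377. By the edgeR test, Cirbp had a log2 amplitude of 0.60 ± 0.14 (SE calculated back from the F statistic) with its fitted peak at 1.51 h and an adjusted p of 0.44, the smallest of the 10. DESeq2 gave it an adjusted p of 0.047, the only call among the 10 genes, and its adjusted p ran from 0.047 to 1.00 over all alternatives. In the edgeR test Dnajb1 had an amplitude of 0.43 ± 0.10 with its fitted peak at 12.1 h (adjusted p = 0.45), and Hspa1a an amplitude of 1.12 ± 0.30 with its peak at 11.2 h (adjusted p = 0.49). Hsp90aa1, fitted at 16.8 h, had an adjusted p of 0.54, and Rbm3 had the largest, 0.73. Exact permutation of the 6 libraries in time cannot go below p = 0.017 for a gene, and gave 0.05 for Cirbp (unadjusted, for a fit at any phase) and an adjusted p of 0.72.

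After the 16-h fast, Cirbp and Rbm3 stood higher than in the ad libitum library, and the heat shock genes were divided. Both cold-inducible genes were at least 2-fold higher, as were 6.68% of 12013 genes. None of the 8 heat shock genes was, and 1, Hspa1a, was at least 2-fold lower, as were 9.02% of genes. The median log2 ratio of the 8 was 0.03, against -0.10 for all genes tested.

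Cirbp stood at 16.2 CPM in the fasted library and 6.74 in the ad libitum library, a log2 ratio of 1.27 (1.08 to 1.45). Rbm3 stood at 38.4 and 16.99 CPM, a ratio of 1.18 (1.06 to 1.30). The Rbm3 value depends on the transcript: NM_016809, whose last exon differs and which held 62.5% to 85.5% as many counts as the kept transcript, gave 0.78 (0.64 to 0.92). The ad libitum library, with its high acute phase share, was the reference for both genes, and it held the lowest hepatocyte marker share, 6.41%. In the fasted library 5 of 10 hepatocyte markers were at least 2-fold higher than there (median log2 ratio 0.98), and all 6 neutrophil markers tested were at least 2-fold lower (median -3.75). Also lower were 2 of 4 cholangiocyte markers tested and 2 of 8 stellate cell markers. Of all genes, 6.68% were higher and 9.02% lower. The part of the markers and of the acute phase share in the ratios of the 10 genes was not tested. With the DD mean as reference instead, the fasted ratios were 0.34 for Cirbp and 0.37 for Rbm3.

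Among the heat shock genes, Hspa1a stood at 0.83 CPM in the fasted and 2.21 CPM in the ad libitum library, a log2 ratio of -1.42 (-2.001 to -0.87) from 36 and 114 counts. Hsph1 stood at 38.3 and 63.7 CPM (-0.74, -0.82 to -0.65), and Hspa1b at 20.3 and 23.98 CPM (-0.24, -0.37 to -0.12). With the DD mean as reference, the fasted ratios were -0.78 for Hspa1a and 0.18 for Hspa1b, so the sign of the latter turned. Against the ad libitum library 4 genes had ratios above 0. Hspa8 stood at 2623 and 1826 CPM (0.52), Hsp90aa1 at 534 and 377 CPM (0.50), Hspd1 at 507 and 365 CPM (0.47) and Hsp90ab1 at 611 and 544 CPM (0.17). Dnajb1 was nearly level, at 34.4 and 36.9 CPM (-0.10, -0.20 to -0.0035), and its sign turned to 0.08 when libraries were scaled by their totals.

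After 20 h of refeeding, the 8 heat shock genes all stood above the ad libitum library and Cirbp stood below it. In all, 3 heat shock genes were at least 2-fold higher, as were 6.17% of 12052 genes, none was 2-fold lower (5.92% of genes), and the median log2 ratio of the 8 was 0.78 against -0.02 for all genes. Hspa1b stood at 72.3 CPM in the refed library, a ratio of 1.59 (1.498 to 1.69). Hspa1a stood at 6.06 CPM (1.46, 1.14 to 1.78), and Hspd1 at 734 CPM (1.01, 0.98 to 1.03), its interval reaching across the limit of 1. The other 5 genes had ratios from 0.29 for Hsph1, at 77.8 CPM, to 0.90 for Hsp90aa1, at 704 CPM. Between them were Hsp90ab1 at 763 CPM (0.49), Hspa8 at 2848 CPM (0.64) and Dnajb1 at 58.7 CPM (0.67).

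Cirbp had its lowest level of the 9 libraries after refeeding, 3.46 CPM, a log2 ratio to ad libitum of -0.96 (-1.24 to -0.69), just short of the limit, and -1.89 with the DD mean as reference. Rbm3, at 16.0 CPM, did not differ from the ad libitum library beyond counting error (-0.09, -0.23 to 0.05), and its sign turned to 0.11 with scaling by library totals. With the DD mean as reference its refed ratio was -0.90. In the refed library too, 4 of 10 hepatocyte markers were at least 2-fold higher than ad libitum and all 6 neutrophil markers tested were lower. Of 4 cholangiocyte markers tested 2 were higher and 2 lower, 1 of 8 stellate cell markers was higher and 1 of 10 macrophage markers lower. Of all genes, 6.17% were higher and 5.92% lower. The part of these markers in the ratios of the 10 genes was not tested. Scaling by totals shifted the median over all genes, on the log2 scale, from -0.02 to 0.18 after refeeding and from -0.10 to 0.09 after fasting. It also moved the numbers of genes past the 2-fold limit, higher and lower, from 744 and 713 to 1147 and 502 after refeeding, and from 802 and 1083 to 1086 and 815 after fasting.

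**Figure D3:**
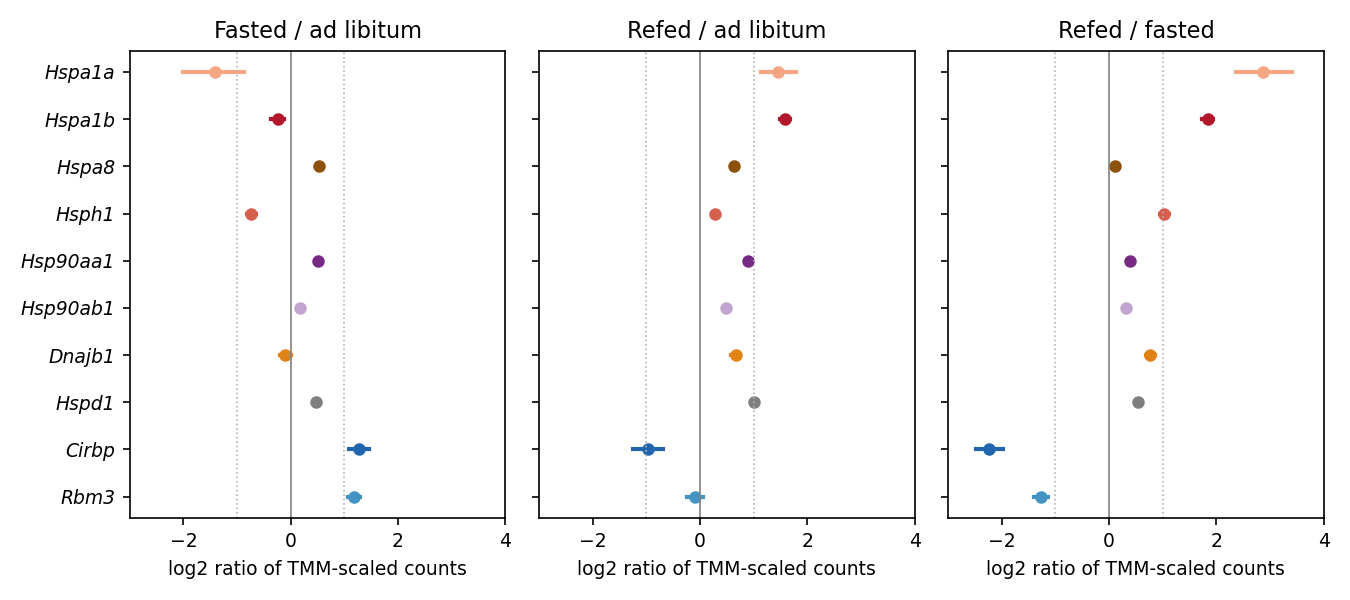
Log2 ratio of TMM-scaled counts for each gene between the fasted, refed and ad libitum libraries, with exact 95% counting intervals (bars, often narrower than the points). Dotted lines mark a 2-fold difference. Cirbp and Rbm3 lie to the right for fasted over ad libitum and to the left for refed over fasted, where all 8 heat shock genes lie to the right.

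The direct ratio of refed to fasted, which shares its libraries with both comparisons above, placed the groups on opposite sides. Hspa1a, Hspa1b and Hsph1 were at least 2-fold higher in the refed library, with log2 ratios of 2.87 (2.37 to 3.42), 1.84 (1.73 to 1.94) and 1.02 (0.94 to 1.11), against 5.65% of 11879 genes. Hsph1 was at 0.97 with DESeq2's size factors. The remaining heat shock genes were on the same side, from 0.12 for Hspa8 to 0.77 for Dnajb1. The median of the 8 was 0.65, against 0.07 for all genes tested, so Hspa8 lay near the level of all genes. Cirbp, at -2.23 (-2.48 to -1.98), and Rbm3, at -1.27 (-1.39 to -1.14), were both at least 2-fold lower, as were 3.81% of genes. By its transcript NM_016809, Rbm3 was at -1.06 (-1.21 to -0.91).

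The 6 DD libraries give a spread of pooled livers against which each feeding library can be placed. In the refed library, 6 heat shock genes, Hspa1a, Hspa1b, Hspa8, Hsp90aa1, Dnajb1 and Hspd1, lay above the whole DD range, where 22.3% of 12510 genes did. Hsph1 and Hsp90ab1 were within the range, since their CT13 levels exceeded the refed ones. Cirbp and Rbm3 both lay below the DD range in the refed library, as did 22.3% of genes, but Rbm3 (14.8 to 17.1 CPM) overlapped its CT21 level of 16.1 CPM.

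In the fasted library Hspa8 and Rbm3 lay above the DD range, where 19.2% of genes did, and none of the 10 lay below it, where 31.4% did. Rbm3 in the fasted library (36.6 to 40.3 CPM) overlapped its CT17 level (34.3 to 37.7 CPM). Dnajb1 and Cirbp lay just outside the range in the ad libitum library, above and below it in turn (20.8% and 22.8% of genes), both by less than their counting error. Cirbp in the ad libitum library, at 6.74 CPM, was close to its DD nadir of 6.92 CPM at CT13.

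Over the 9 libraries, the ratio of Hsph1 to Cirbp in CPM is one summary of the contrast, chosen with the levels known. Both transcripts are free of shared stretches, as are Dnajb1 and Hsp90ab1. From CT1 to CT21 it was 1.49, 0.88, 4.65, 18.4, 1.85 and 4.72. In the feeding libraries it was 9.45 ad libitum, 2.36 after fasting and 22.5 after refeeding. The refed and CT13 libraries were thus alike in having high Hsph1 with low Cirbp, and CT5 and CT1 had the reverse. Taken to Rbm3 instead, the ratio was 0.95, 0.45, 1.49, 4.05, 0.60 and 3.57 from CT1 to CT21, 3.75 ad libitum, 0.996 after fasting and 4.88 after refeeding, so that CT21 then stood near CT13. The contrast does not hold for every pair: CT17 was low in Hsph1 while Cirbp was at its DD median (-0.03), and after fasting Hspa8 was high (1.14 above its DD median on the log2 scale) together with Cirbp (0.44) and Rbm3 (0.30).

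**Figure D4:**
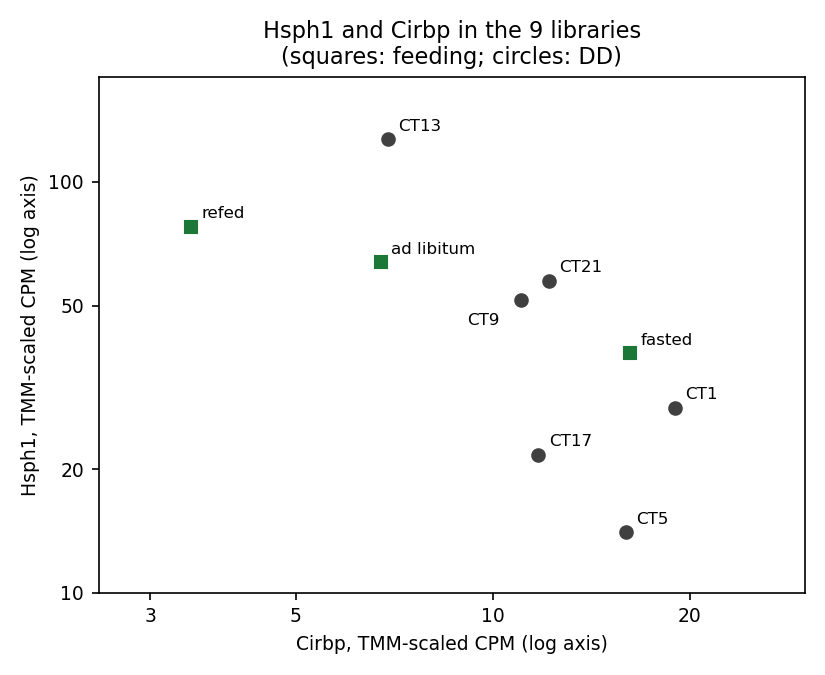
TMM-scaled CPM of Hsph1 against that of Cirbp in the 9 libraries, both on log axes, with feeding libraries as green squares and DD libraries as circles. CT13 (127 and 6.92 CPM) and refed (77.8 and 3.46 CPM) lie at the upper left, CT5 (14.0 and 16.0 CPM) at the lower right, and CT17 lies low in Hsph1 at a middle level of Cirbp.

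Counted over the group, 8 of 8 heat shock genes stood above their DD median at CT13 and at CT21, against 54.0% and 56.7% of 12510 genes. The count was 6 at CT9 (50.8% of genes), 2 at CT17 (47.5%), 0 at CT1 (40.6%) and 0 at CT5 (50.3%). In the refed library it was 8 (48.3%), with a median of 1.13 (log2), in the ad libitum library 7 (49.1%) with a median of 0.57, and in the fasted library 6 (40.6%) with a median of 0.41. The medians over all genes lay between -0.11 and 0.02. At CT21 the heat shock genes had a median of 0.27 and reached 0.53, with Dnajb1 level with its DD median at 0.0029, while Cirbp was at 0.03 and Rbm3 at -0.96.

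Other chaperones were counted by the same limits. Of 29 other cytosolic chaperones and co-chaperones, 0 were at least 2-fold higher or lower after fasting, and 2 were higher and 1 lower after refeeding. Of all genes, 6.68% were higher and 9.02% lower after fasting, and 6.17% and 5.92% after refeeding, so that the refed counts of the 29 were near the background. Their median refed log2 ratio was 0.35. Hspb1, the small chaperone HSP27, stood at 35.2 CPM in the refed library and 13.7 CPM in the ad libitum library (1.36). Hspa4l, of the HSP110 family as Hsph1 is, stood at 61.7 and 30.1 CPM (1.03). Fkbp5, an HSP90 co-chaperone known as a glucocorticoid target, was the lower one, at 19.8 and 48.8 CPM (-1.31). For refed against fasted, Fkbp4, another HSP90 co-chaperone, stood at 322 and 149 CPM (1.11), Cryab, a small chaperone of few counts, at 1.77 and 0.78 CPM (1.18), and Fkbp5 again on the lower side (-1.36).

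In DD, 13 of these 29 genes had their highest level at CT13 and 7 at CT9 (21.4% and 15.5% of all genes), while 10 were lowest at CT1 and 8 at CT5 (24.3% and 13.9%). Of them, 9 passed a log2 ratio of 1 between peak and nadir (22.8% of all genes) and 1, Fkbp5, passed 2 (4.42%). Fkbp5 was highest at CT9 (113 CPM) and lowest at CT21 (18.0 CPM), a ratio of 2.65. Hspb1 was highest at CT17 (36.4 CPM) and lowest at CT5 (9.49 CPM), a ratio of 1.94, and Hspa4l ran from 60.1 CPM at CT13 to 17.01 at CT5, a ratio of 1.82. The testis-enriched Hspa2 was highest at CT9, at 7.38 CPM, with a ratio of 1.66. The 8 subunits of the cytosolic chaperonin TRiC, which folds actin and tubulin, had no ratio past 1 in any comparison. Their median was 0.33 in DD, against 0.62 for all genes, and 0.61 for refed against ad libitum, against -0.02.

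Of 8 other mitochondrial chaperones, 1, Hspe1, was at least 2-fold higher after refeeding, as were 6.17% of all genes. Another 1, Clpx, was at least 2-fold lower, as were 5.92%. Hspe1, the co-chaperonin HSP10 that caps HSP60, lies head to head with Hspd1, and the exons of both genes overlap. It stood at 177 CPM in the refed library and 79.8 CPM in the ad libitum library (1.15), beside 1.01 for Hspd1. Clpx, an unfoldase of the matrix protease, was on the other side, at 117 and 330 CPM (-1.50). For refed against fasted Clpx was at -1.98, the only one of the 8 past the limit (3.81% of all genes were lower). The median of the 8 was then 0.07, as over all genes. In DD Clpx ran from 319 CPM at CT21, the highest time of 17.9% of all genes, to 65.2 at CT9 (2.29).

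Other RNA-binding and splicing genes were counted by these limits as well. Of 16 genes of the RBMX and hnRNP group, 0 were at least 2-fold different after fasting, and 1, Hnrnpa0, was lower after refeeding (5.92% of all genes), at 14.97 and 30.9 CPM (-1.04). Of the 16, 8 had their highest level in DD at CT13, where Cirbp was lowest (21.4% of all genes peaked there). At CT17, 9 of the 16 were lowest, as were 21.4% of all genes, with Cirbp at its DD median (-0.03). None of the 16 passed a ratio of 1 in DD, as 22.8% of all genes did. Of 15 genes of CLK kinases, whose activity is known to depend on temperature, and their SR protein substrates, none passed the limit in the feeding comparisons. Tra2a, a splicing regulator, was the only one past a ratio of 1 in DD, at 21.4 CPM at CT13 and 9.62 at CT5 (1.15).

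Profiles over the 9 libraries were compared by the root mean square difference of centred log2 levels, among 10606 genes with at least 200 counts. Nearest to Hsph1 were Palld (0.52), Chordc1 (0.56), Tfrc (0.57), Bag3 (0.57) and Slc5a3 (0.57). Of the other heat shock genes, Hspa1b ranked 19 and Hsp90ab1 23, and the furthest, Hspd1, ranked 217. Cirbp ranked 10430 and Rbm3 10062. Nearest to Cirbp were Zc3h6 (0.31), Raet1e (0.35), Mettl27 (0.38), Agtr1a (0.38) and Raet1d (0.40), whereas Rbm3 ranked 169 at 0.56 and the heat shock genes ranked from 9685 for Hsp90ab1 to 10559 for Hspa1b. Agtr1a, the angiotensin II receptor, stood at 67.1 CPM in the fasted and 24.4 CPM in the refed library.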

How the data were processed

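Livers were pooled by condition, and 1 polyA+ library each was sequenced as paired reads of 150 bases. Reads were aligned by the authors to GRCm38/mm10, with TopHat2 2.0.13 named by the submitters' processing notes, and the deposited tables hold whole-number counts for 27457 transcripts a library. How reads were counted, whether by strand, and where reads shared between transcripts went is not given in the sources used. Besides NM_016809, the Rbm3 transcripts held 877, 875 and 875 counts in the ad libitum library. Transcripts of a gene may therefore hold the same reads, so summed transcripts and NM_016809 may not be independent of the kept transcript. The study's methods name FPKM, which was not used here.

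Transcripts were named from RefSeq GRCm38.p6 (26390) and GENCODE M21 (115). The 952 without a name (0.346% to 0.817% of counts) were left out. Each gene is represented by its transcript of highest total, since 3734 of the 20409 genes have several. Libraries were scaled by TMM in edgeR 4.0.16 under R 4.3.3. Feeding libraries were compared as log2 ratios with exact conditional binomial intervals and no p-value, a ratio of at least 1 in size counting as 2-fold, among genes with at least 50 counts in the higher library. Levels carry exact Poisson intervals. Rhythm was tested by edgeR's quasi-likelihood F test of a 24-h cosine and sine, after filterByExpr (minimum count 10), with Benjamini-Hochberg adjustment over the genes tested. Alternatives used limma 3.58.1, DESeq2 1.42.0, other scalings, count minimums of 10 and 100, summed transcripts, and leaving out each DD library. Lengths and overlaps came from GENCODE M21, promoters from RefSeq. Near profiles used log2 of CPM plus 0.5. The calculation of ratios and rhythm tests was checked on simulated data. The simulated rhythms were pure 24-h cosines with a fixed spread for all genes, so they do not show how many rhythms the test could find in these livers.

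The text names all 10 members, up to 4 genes past the limit of each other chaperone, RNA-binding or splicing list in each comparison by size of ratio, and the 5 nearest profiles of Hsph1 and Cirbp. Dnaja1, at rank 5 of its list in DD, is named outside this rule, with its levels known. Members and lists were chosen with earlier results of these data known. Python 3.11.15, numpy 2.4.6, pandas 2.3.3, scipy 1.17.1 and matplotlib 3.10.9 were used.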

Additional observations from a re-analysis of the deposited data

How the results depend on the processing

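No direction of a called ratio turned under any alternative. With the mean of the 6 DD libraries as reference, 1 heat shock gene was at least 2-fold higher and 0 were lower after fasting, and 5 were higher after refeeding. Leaving out each DD library in turn gave 3 to 5 heat shock genes past the DD limit of 2 (3 without CT13) and 0 to 32 rhythmic genes by edgeR (1 without CT1, 32 without CT21), none of them among the 10. DESeq2's likelihood ratio test called 377 genes and 1 of the 10. Against the DD range, DESeq2 size factors left 1 of the 10 below it in the refed library, and total counts left 0 above and 2 below it in the ad libitum library. Leaving out each DD library gave 1 to 3 above (3 without CT13) and 1 to 2 below it (2 without CT21) in the ad libitum library, 2 to 4 above it in the fasted library (4 without CT13), and 6 to 8 above it in the refed library. The cause of these shifts was not tested. Of the counts compared, 127 kept within 1.5 times and 14 moved further. The value for Rbm3 by NM_016809 and those without CT1 and CT17 were chosen after seeing the data. No paired analysis was possible because each condition has 1 library. Hspa1a, at 31 to 291 counts, is the least precise of the 10 genes.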

Other observations

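The ratio of Hspa1b to Hspa1a in CPM, which shares stretches of sequence between numerator and denominator, was 8.19 to 11.9 in 6 libraries (ad libitum, refed, CT1, CT5, CT9 and CT17) and higher in 3, at 16.96 at CT13, 19.1 at CT21 and 24.5 in the fasted library. It rested on as few as 31 counts of Hspa1a (CT1), with 36 in the CT5 and fasted libraries. No interval was calculated for this ratio, and whether these libraries differ beyond counting error was not tested. Hspb1 stood at 24.1 CPM in the fasted library, 35.2 in the refed library and 36.4 at CT17, a time at which Hspa1b was at 5.96 CPM. Dnaja1, an HSP40 co-chaperone, ran from 138 CPM at CT1 to 381 at CT13 (log2 ratio 1.46), and stood at 340.1 CPM after fasting and 443 after refeeding, against 232 ad libitum.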
